A study of Mus musculus with 16 samples.

Results

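The genes of phase II conjugation were followed in liver RNA-seq libraries of young and adult mice. The set held every protein-coding gene whose symbol names a cytosolic or microsomal glutathione S-transferase (GST), a UDP-glucuronosyltransferase (UGT) of families 1 to 3, or a cytosolic sulfotransferase (SULT). The rule used the symbol and the gene type and no measured value. It found 64 of the 47729 genes in the count table: 21 cytosolic GSTs, 3 microsomal GSTs, 21 UGTs and 19 SULTs. Of these, 52 had enough reads to be tested, which left 12 that are described by their range.

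Phase II enzymes attach a polar group to a reactive or fat-soluble compound, often one that a cytochrome P450 has already oxidized. GSTs add glutathione, UGTs add glucuronic acid taken from UDP-glucuronic acid, and SULTs add sulfate taken from the donor PAPS. The liver uses these reactions on drugs and carcinogens and also on its own products, such as bilirubin, bile acids, steroids and thyroid hormone.

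The livers came from wild-type C57BL/6 male mice that were 1 month old (3 to 4 weeks in the sample labels) or 6 months old. Diethylnitrosamine (DEN), a liver carcinogen that P450 enzymes turn into a DNA-alkylating agent, was injected once into the peritoneum at 25 mg/kg. At each age there were 2 libraries of untreated controls, 3 libraries from day 2 after DEN and 3 libraries from day 6, and each of the 16 libraries was a pool of 3 mice. The controls were not matched by day, so in the young mice growth over 2 to 6 days and the response to DEN cannot be told apart. The design gives 3 comparisons: adult against young livers, each day after DEN against controls of the same age, and the difference between the ages in that response.

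The libraries held 19039330 to 34459774 counts (median 26125036.5), of which the conjugation genes took 1.48% to 2.01%. Levels are in CPM, counts scaled to a common library size. Y-linked transcripts were present in every library (Ddx3y at 92.2 to 126 CPM) and Xist was at 0 to 0.301 CPM, as the label male requires. The summed level of 8 hepatocyte markers was 21425 to 33532 CPM, against 37.3 to 86.4 CPM for 7 cholangiocyte markers, and the kidney gene Aqp2 was at 0 throughout. The lowest hepatocyte and cholangiocyte sums were both those of the second day 2 library at 1 month. There were 3 libraries of 1-month-old mice with low clock scores, a log2 difference between clock-output and clock-driver genes. They were the second control at -1.79, the last day 2 library at -2.56 and the second day 6 library at -3.07, while the others lay between -0.73 and 3.78. Mitochondrial genes took 2.18% to 3.52% of the counts in those 3 libraries and 3.82% to 5.28% in the others. Some results that rest on these 4 libraries are given with and without them, and the others with all libraries only. In bulk tissue, fewer cells of a type and less RNA per cell cannot be told apart.

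Per kilobase of exon, the strongest conjugation gene was Mgst1, the microsomal GST of the endoplasmic reticulum and mitochondrial outer membrane. Its mean level was 1802 CPM per kb, with the 16 libraries between 1434 and 2150. Gstm1, a cytosolic mu-class GST, followed at 1385 CPM per kb (902 to 2063), and these ranges overlapped. By this measure the next genes lay below both of them. The length was the union of all annotated exons, and shared sequence was not allowed for, so the ranks are approximate. Gsta3, for example, was divided by 4344 bases, while its coding transcripts hold 1739 distinct stretches of 50 bases. Among the UGTs, Ugt2b5 had the highest mean level at 552 CPM per kb (413 to 828), followed by Ugt2b36 at 422 CPM per kb (346 to 540.1). Ugt1a1, the enzyme that conjugates bilirubin, stood at 293 CPM per kb (184 to 351). Of its stretches of 50 bases 80.2% also occur in another gene, so its rank is uncertain. The strongest sulfotransferase was Sult2a8, a hepatic member of the hydroxysteroid and bile acid family, at 249 CPM per kb (159 to 350.3), ahead of the phenol sulfotransferase Sult1a1 at 178 CPM per kb (94.7 to 275). At the other end, Sult1c1 had no count in any library, and the estrogen sulfotransferase Sult1e1 reached at most 11 counts in a library.

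**Figure D1:**
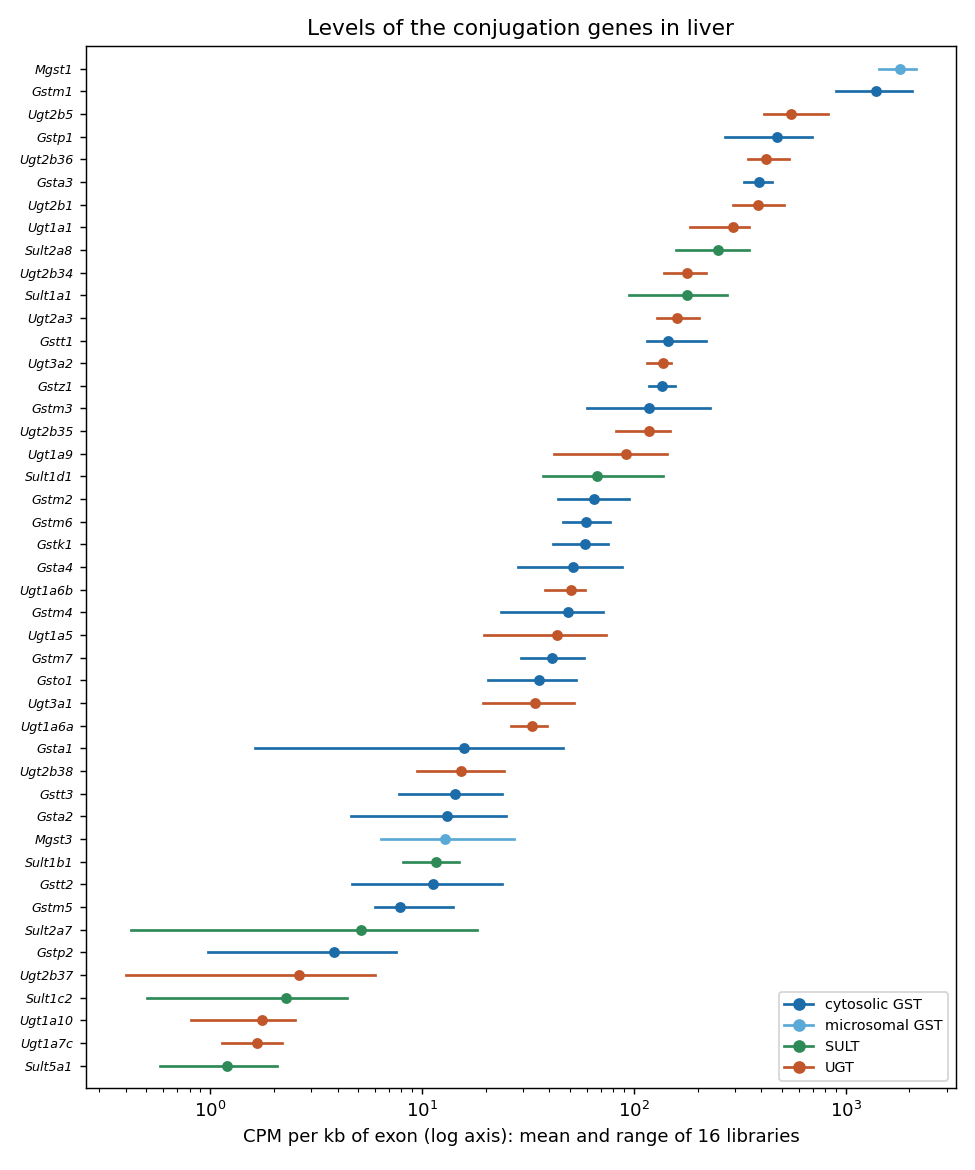
Level of 45 conjugation genes with a mean of at least 1 CPM per kb and a count in every library. The horizontal log axis gives CPM per kb of exon, each point is the mean of 16 libraries, each line runs from the lowest to the highest library, and colors mark the family. Mgst1 (1802) and Gstm1 (1385) stand above all UGTs and SULTs, and the widest lines belong to low genes such as Gsta1 and Sult2a7.

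Adult livers were compared with young livers, averaged over controls, day 2 and day 6, so that 8 libraries stood against 8. At 6 months 7 conjugation genes were higher and 8 were lower, each at an adjusted p under 0.1 by quasi-likelihood in edgeR, with p-values adjusted by Benjamini and Hochberg over all 15684 genes tested (12.1% of all genes were higher and 10.5% lower). These 15 made up 28.8% of the 52 members tested, beside 22.6% of all genes, which is near the background and no result about the set as a whole. The median log2 fold change was 0.00 over the members and -0.01 over all genes. The families differed in direction, with no test of that difference. Of 19 cytosolic GSTs, 5 rose and 1 fell. Of 18 UGTs, 2 rose and 4 fell, and of 13 SULTs none rose and 3 fell. Neither of the 2 microsomal GSTs tested was called. For 3 of the risen genes and 5 of the fallen genes the 8 libraries of one age did not overlap with the 8 of the other, beside 1.97% and 1.71% of all genes.

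**Figure D2:**
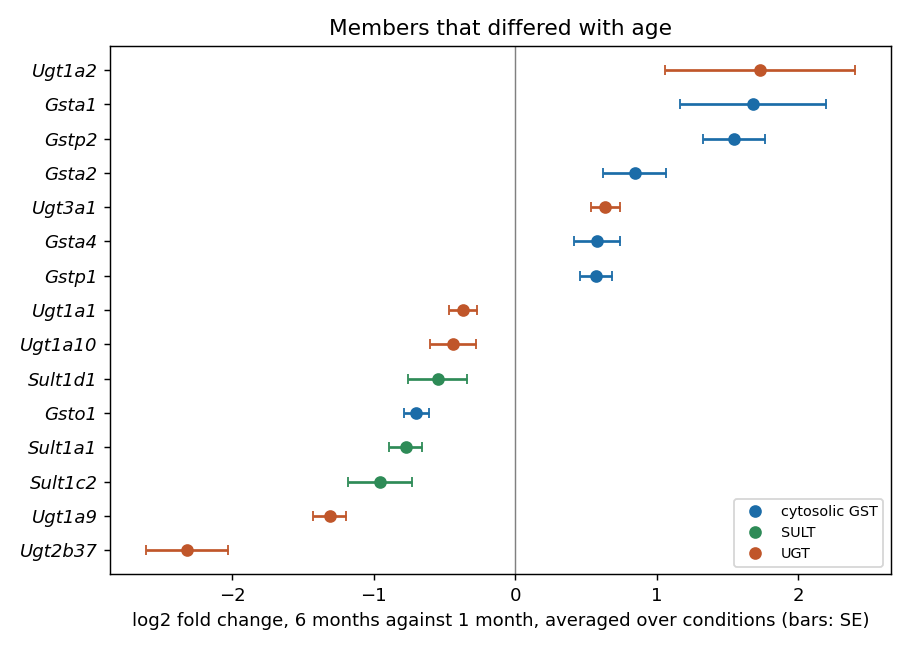
Log2 fold change of 6-month against 1-month livers, averaged over conditions, for the 15 conjugation genes past an adjusted p of 0.1. Points are edgeR estimates from 8 libraries an age, bars are standard errors, and colors mark the family. Ugt2b37 (-2.32) and Ugt1a9 (-1.31) lie lowest, all 3 SULTs lie below 0, and 5 of the 6 cytosolic GSTs lie above 0.

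The UGT1A enzymes are made from a single locus on chromosome 1, where each gene has its own first exon and promoter and all share the last exons. Ugt1a9 (ENSMUSG00000090175, chr1:88070800-88218997 in GRCm38, plus strand), which conjugates phenols and many drugs, fell most clearly. Its level was 293 and 279 CPM in the young controls, 237, 316 and 314 CPM at day 2 and 253, 306 and 291 CPM at day 6. In the adults it was 100.4 and 139 CPM in controls, 119, 96.1 and 153 CPM at day 2 and 99.7, 119 and 92.5 CPM at day 6. No adult library reached the lowest young library. The age difference on the log2 scale was -1.31 (SE 0.115, edgeR adjusted p = 5.28e-06). Ugt1a9 also passed on its own in controls (-1.25, edgeR adjusted p = 0.0137), at day 2 (-1.23, edgeR adjusted p = 0.00196) and at day 6 (-1.45, edgeR adjusted p = 0.000862).

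Ugt1a1 (chr1:88211959-88218997) had a lowest, median and highest level of 697, 725 and 779.6 CPM at 1 month and 409, 566 and 693 CPM at 6 months. The groups lay side by side without overlap, and the log2 fold change was small at -0.37 (SE 0.0986, edgeR adjusted p = 0.0204). Ugt1a10, which is mainly known from the intestine, was at 3.54 to 5.61 CPM in young and 1.85 to 5.68 CPM in adult livers, with a log2 fold change of -0.44 (SE 0.161, edgeR adjusted p = 0.0791). Its low values at 6 months were those of the controls, at 1.96 and 1.85 CPM. Ugt1a2 went the other way, from a median of 0.103 CPM at 1 month (0 to 0.624) to 0.792 CPM at 6 months (0 to 1.88). It rested on at most 49 counts in a library and just passed, with a log2 fold change of 1.73 (SE 0.674, edgeR adjusted p = 0.0986). Summed over the locus, the UGT1A genes gave 1445 ± 82.2 CPM (SD, n = 2) in young and 1037 ± 33.9 CPM (SD, n = 2) in adult controls.

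The shared exons matter for these values. In the reference transcripts, 62.0% of the 50-base words of Ugt1a9 and 80.2% of those of Ugt1a1 also occur in another gene, so reads from the common exons could not be assigned to 1 of them, and the treatment of such reads in the counting is not stated. The stretches before the first exons are separate. Those of Ugt1a9 (chr1:88070529-88070778, plus strand) and Ugt1a2 (chr1:88200361-88200610, plus strand), the UGT1A genes with the largest fall and the only rise that passed, are shown because they are what differs between members of the locus. Each line gives 250 bases that end just before the RefSeq start in GRCm38.p6, 5′ to 3′, and neither window holds a match to the motifs searched.
Ugt1a9: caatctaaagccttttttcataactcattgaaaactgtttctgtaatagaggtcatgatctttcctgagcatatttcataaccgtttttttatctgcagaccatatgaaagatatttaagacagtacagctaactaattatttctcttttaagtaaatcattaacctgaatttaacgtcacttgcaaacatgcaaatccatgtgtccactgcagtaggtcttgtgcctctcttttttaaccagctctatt
Ugt1a2: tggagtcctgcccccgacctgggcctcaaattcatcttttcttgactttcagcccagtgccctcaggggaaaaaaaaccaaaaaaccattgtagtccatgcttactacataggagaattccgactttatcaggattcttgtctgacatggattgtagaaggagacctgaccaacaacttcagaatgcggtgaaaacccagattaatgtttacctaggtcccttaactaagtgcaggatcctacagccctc

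Outside that locus, Ugt2b37 (ENSMUSG00000057425, chr5:87240493-87254804, minus strand) of the steroid-conjugating UGT2B family had the largest fall. Young controls gave 10.1 and 8.46 CPM, day 2 gave 4.51, 9.77 and 9.32 CPM, and day 6 gave 11.4, 6.16 and 6.88 CPM. Adult controls gave 1.12 and 4.38 CPM, day 2 gave 1.22, 0.877 and 1.63 CPM, and day 6 gave 1.15, 0.757 and 1.97 CPM. The second adult control came close to the lowest young library, and all other adult libraries were below 2 CPM. The log2 fold change was -2.32 (SE 0.291, edgeR adjusted p = 0.000134), or 0.2 of the young level. Ugt3a1 (chr15:9273319-9315032, plus strand), which uses N-acetylglucosamine in place of glucuronic acid, rose. Its level was 51.9 to 88.2 CPM with a median of 70.8 at 1 month and 88.4 to 139.7 CPM with a median of 109 at 6 months. The groups just failed to meet, and the log2 fold change was 0.64 (SE 0.104, edgeR adjusted p = 0.00105). Its neighbor Ugt3a2, which uses UDP-glucose and related donors, differed by 0.00 (SE 0.0744, edgeR adjusted p = 0.984). The other UGT2B genes did not pass in edgeR. Ugt2b5 differed by -0.11 (SE 0.120, edgeR adjusted p = 0.610), Ugt2b36 by -0.18 (SE 0.0828, edgeR adjusted p = 0.161), Ugt2b1 by -0.15 (SE 0.111, edgeR adjusted p = 0.399) and Ugt2b38 by -0.30 (SE 0.155, edgeR adjusted p = 0.218). DESeq2 called Ugt2b36 lower at -0.19 (DESeq2 adjusted p = 0.0975). It also called Ugt2b34 lower, at -0.24 (DESeq2 adjusted p = 0.0551). In DESeq2 19 members were called in all, beside 3889 of all genes.

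**Figure D3:**
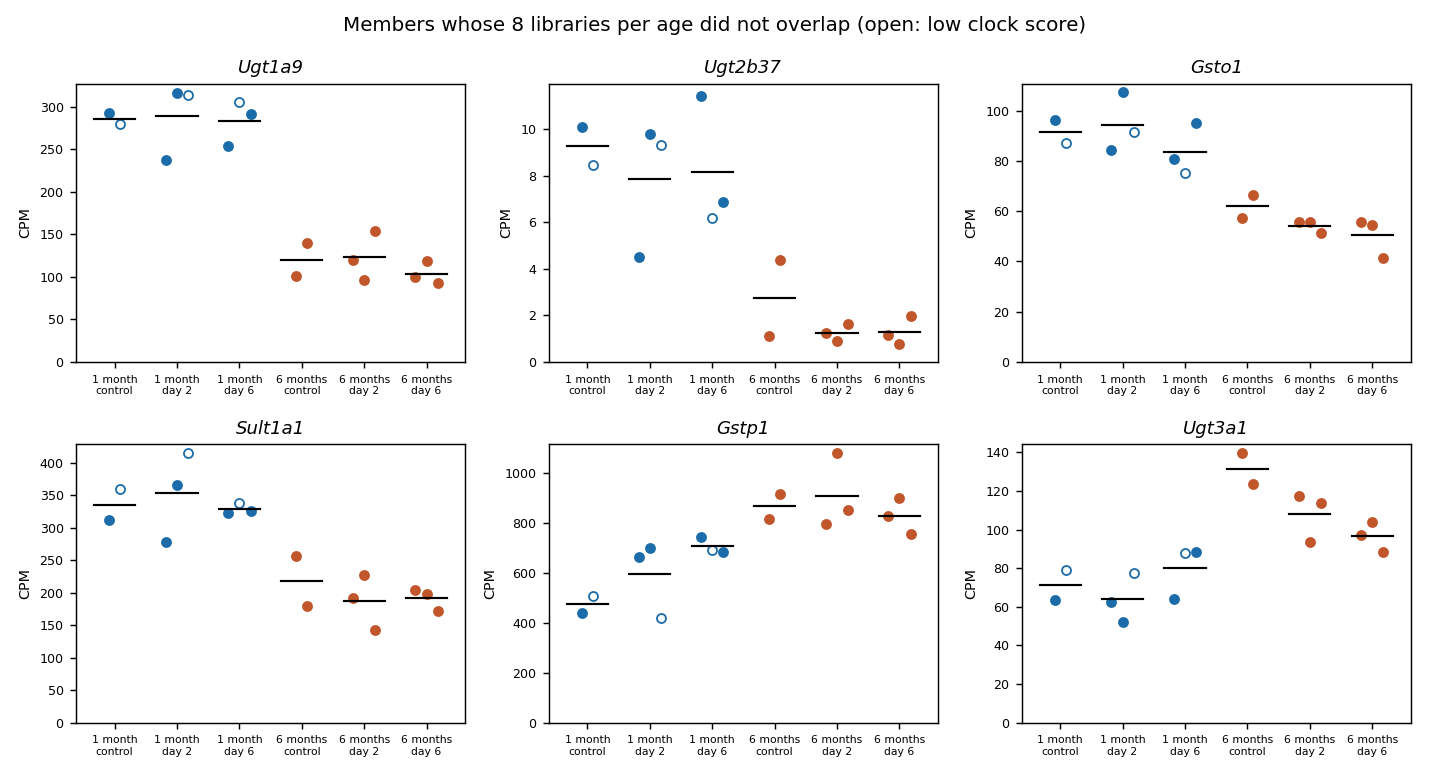
CPM of Ugt1a9, Ugt2b37, Gsto1, Sult1a1, Gstp1 and Ugt3a1 in each library (vertical axes, linear from 0) by age and condition (horizontal axes). Points are libraries, blue at 1 month and orange at 6 months, bars are group means, and open circles are the 3 libraries of low clock score. In each panel the 8 young and the 8 adult libraries do not overlap, for example 237 to 316 against 92.5 to 153 CPM for Ugt1a9.

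Among the cytosolic GSTs, both pi-class genes rose with age. Gstp1 (ENSMUSG00000060803, chr19:4035407-4037921, minus strand), a GST of hepatocytes that is higher in males, was at 438 and 508 CPM in young controls and 817 and 915 CPM in adult controls. After DEN it was at 663, 700.0 and 419 CPM at day 2 and 743, 691 and 682 CPM at day 6 in young mice. Adult livers had 794, 1080.2 and 849 CPM at day 2 and 828, 899 and 755 CPM at day 6. Young livers ranged widely, with the controls and 1 day 2 library low, but every adult library was higher than all of them. The log2 fold change was 0.57 (SE 0.113, edgeR adjusted p = 0.00368) averaged over conditions and 0.87 (SE 0.222, edgeR adjusted p = 0.0750) in controls. Gstp2, its near copy on the same strand, went from a median of 2.10 CPM (1.09 to 3.79) to 6.28 CPM (4.34 to 8.43), with a log2 fold change of 1.55 (SE 0.223, edgeR adjusted p = 0.0004). Of its 50-base words, 44.7% also occur in Gstp1, so the level of Gstp2 is uncertain beside a partner far above it.

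Gsto1 (ENSMUSG00000025068, chr19:47854970-47864790, plus strand), an omega-class GST that reduces methylated arsenic, was the only cytosolic GST that fell. It was at 96.3 and 86.9 CPM in young controls, 84.2, 107 and 91.5 CPM at day 2 and 80.6, 75.1 and 95.1 CPM at day 6. In adults it was at 57.4 and 66.3 CPM in controls, 55.6, 55.8 and 51.3 CPM at day 2 and 55.6, 54.4 and 41.3 CPM at day 6. All adult libraries lay below all young ones, with a log2 fold change of -0.70 (SE 0.0870, edgeR adjusted p = 0.000126). None of its 50-base words occurs in another gene.

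The alpha class conjugates products of lipid peroxidation, with Gsta4 acting on 4-hydroxynonenal. Of its 4 members 3 rose with age, while Gsta3, by far the strongest of them at 391 CPM per kb, differed by 0.05 (SE 0.1001, edgeR adjusted p = 0.793). Gsta1 (ENSMUSG00000074183, chr9:78230656-78242684, plus strand) was at 1.56 to 7.97 CPM in 7 young libraries and at 43.1 CPM in the second day 2 library. Adult livers had 10.5 to 44.5 CPM with a median of 17.3. Apart from that 1 library the ages did not overlap. The log2 fold change was 1.68 (SE 0.515, edgeR adjusted p = 0.0389) with it and 2.46 (edgeR adjusted p = 0.000297) without it, and the call was lost without the second young control (edgeR adjusted p = 0.128). Gsta2 (chr9:78331018-78355788, minus strand) had a median of 9.30 CPM (5.47 to 29.5) at 1 month and 20.8 CPM (12.6 to 24.2) at 6 months. Its log2 fold change was 0.85 (SE 0.223, edgeR adjusted p = 0.0191), and without the same library 1.06 (edgeR adjusted p = 0.000940). Gsta4 had a median of 46.6 CPM (35.8 to 112) and 79.8 CPM (50.8 to 99.5), with a log2 fold change of 0.58 (SE 0.161, edgeR adjusted p = 0.0251). Without the 3 libraries of low clock score, which are all from young mice, it was 0.51 and missed the threshold (edgeR adjusted p = 0.117).

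Gsta1 and Gsta2 share much of their sequence. Of the 50-base words of Gsta1, 89.7% occur in another gene and 82.9% in the gene model Gm3776, and of those of Gsta2, 32.9% occur in Gsta1. The stretches before their starts (chr9:78230419-78230668, plus strand, and chr9:78347146-78347395, minus strand) are shown because both genes rose with age while reads of their transcripts are hard to separate. Sequences are RefSeq's in GRCm38.p6, 5′ to 3′, and the capitals mark a match to a STAT5 site, TTCNNNGAA.
Gsta1: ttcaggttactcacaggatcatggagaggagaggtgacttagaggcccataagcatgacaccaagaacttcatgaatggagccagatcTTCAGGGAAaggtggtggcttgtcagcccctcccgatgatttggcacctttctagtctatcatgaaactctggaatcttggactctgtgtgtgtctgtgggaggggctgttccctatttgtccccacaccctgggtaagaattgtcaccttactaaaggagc
Gsta2: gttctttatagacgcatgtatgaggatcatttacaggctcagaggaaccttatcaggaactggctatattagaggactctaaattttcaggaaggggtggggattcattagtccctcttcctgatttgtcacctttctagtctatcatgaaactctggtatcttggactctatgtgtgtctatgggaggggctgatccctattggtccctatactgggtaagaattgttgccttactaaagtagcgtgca

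Motifs were searched on both strands in windows from 250 bases before to 50 after each RefSeq start, and 56 member genes had 68 such windows. The core of the antioxidant response element, TGACNNNGC, occurred in 5.88% of the member windows (Gsta3, Gstm5, Gstm7 and Mgst1) and in 12.4% of all 32851 windows. The STAT5 site occurred in 8.82% of the member windows, those of Gsta1, Gstm6, Mgst1, Mgst2, Sult3a1 and Ugt1a6a, and in 8.30% of all windows. The D-box forms TTATGTAA, TTACGTAA and TTATGCAA occurred in 2.94%, those of Gstt1 and Ugt2b1, and in 1.78% of all windows. A match describes these letters only, and a window without one says nothing about the factor.

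All 3 sulfotransferases that passed with age fell, and all belonged to the SULT1 family of phenol and catechol sulfotransferases. Sult1a1 (ENSMUSG00000030711, chr7:126672865-126676432, minus strand), the main phenol sulfotransferase of liver, was at 312 and 360.5 CPM in young controls, 278, 366 and 415 CPM at day 2 and 323, 339 and 326 CPM at day 6. Adult livers had 256 and 179.9 CPM in controls, 193, 227 and 143 CPM at day 2 and 205, 198 and 173 CPM at day 6. The highest adult library, a control, stayed below the lowest young one. On the log2 scale the difference was -0.77 (SE 0.116, edgeR adjusted p = 0.000576). Sult1c2 had a median of 5.27 CPM (3.36 to 8.13) in young and 3.11 CPM (0.929 to 4.06) in adult livers, with a log2 fold change of -0.95 (SE 0.226, edgeR adjusted p = 0.0110). Sult1d1, which sulfates catecholamines, had a median of 174 CPM (105 to 337) and 131 CPM (92.1 to 169.6), with wide overlap and a log2 fold change of -0.55 (SE 0.211, edgeR adjusted p = 0.0950). Sult1b1, a thyroid hormone sulfotransferase, differed by 0.03 (SE 0.132, edgeR adjusted p = 0.905), Sult5a1 by 0.34 (SE 0.194, edgeR adjusted p = 0.272) and Sult2a8 by 0.08 (SE 0.146, edgeR adjusted p = 0.754).

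Sult2a1, Sult2a2, Sult2a4, Sult2a5 and Sult2a6, which sulfate hydroxysteroids and bile acids and are known as female-biased in mouse liver, were highest in 3 young libraries and at or near 0 in all adult ones. Sult2a1 was at 7.54 CPM in the second young control, at 6.09 CPM in the second and 1.39 CPM in the last day 2 library, and at most 0.153 CPM in each of the other 13. Sult2a2 was highest in the same 3 libraries at 6.22, 6.78 and 1.26 CPM, and 0 in all 8 adult libraries. Sult2a5 reached 2.89, 3.03 and 0.654 CPM there, and Sult2a6 reached 2.04, 3.06 and 0.349 CPM. Sult2a4 was counted in these 3 libraries alone, at 0.544, 0.729 and 0.174 CPM. The 5 genes varied together within groups, with Pearson correlations of 0.947 to 0.991 over the 16 libraries, a description over libraries in which most values are near 0. They share reads, since 62.1% of the 50-base words of Sult2a2 occur elsewhere, but only 6.63% of those of Sult2a6 do. Cyp2b13, a female-biased P450, was at 3.09, 14.04 and 0.741 CPM in the same libraries and at most 0.729 CPM in the other young ones. The last day 2 library was thus hardly set apart for Cyp2b13, and other female-biased P450 genes are not given for these libraries. Of the 3 libraries, 2 are among those of low clock score, and each is a pool of 3 mice. All adult libraries held 3 counts or fewer of each gene, so no fold change is given, although Sult2a1 passed between the ages at day 2 (edgeR adjusted p = 0.0996). That call was lost in 11 of 22 alternatives, up to an edgeR adjusted p of 0.317 without the second young day 2 library.

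Single time points gave shorter lists of the same age comparison. In controls, with 2 libraries a group, 3 members were higher (Gstp1, Gstp2 and Ugt3a1) and 1 was lower (Ugt1a9), beside 2.67% of all genes in either direction. In counts of 15379 genes simulated with the same spread for all, the same test recovered 34% of genes changed 2-fold in that comparison. It recovered 93% of those changed 4-fold, and 9.29% of the genes it called were false. Each of the 4 calls was lost with only the groups compared (edgeR adjusted p = 0.111 for Ugt1a9, 0.143 for Ugt3a1, 0.137 for Gstp2 and 0.166 for Gstp1), and also without the first adult control. At day 2, 3 were higher and 6 lower, beside 5.90% of all genes, and the lower ones include Sult2a1, which was at 0 in adult day 2 livers. Sult1c2 showed its largest difference at day 2, -1.65 (SE 0.370, edgeR adjusted p = 0.0256). At day 6, 3 were higher and 4 lower, beside 4.47%. There were 2 higher members that passed at day 6 but not in controls or at day 2. They were Gsta2 at 1.22 (SE 0.359, edgeR adjusted p = 0.0989) and Gstm3 at 0.90 (SE 0.258, edgeR adjusted p = 0.0940). For Gstm3 the corresponding values were -0.48 in controls (edgeR adjusted p = 0.605) and -0.26 at day 2 (edgeR adjusted p = 0.612). At day 6 the call of Gsta2 was lost in 14 of 23 alternatives, RLE scaling among them (edgeR adjusted p = 0.103), and that of Gstm3 in 13 of 23, up to an edgeR adjusted p of 0.329 without the last adult day 6 library.

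The response to DEN was compared with controls of the same age. At day 2 in 1-month-old mice 0 of 52 members passed edgeR's test, beside 0.0191% of all genes. At an unadjusted p under 0.05 there were 9, or 17.3% of the members, beside 7.16% of all genes. DESeq2 called 0 members and 91 of all genes. At day 6 in 1-month-old mice 0 passed in edgeR, beside 0% of all genes, with 6 members (and 2.72% of all genes) at an unadjusted p under 0.05. DESeq2 called 0 members and 19 of all genes there. At day 2 in 6-month-old mice 0 passed in edgeR, beside 0.319%, with 12 at an unadjusted p under 0.05 (4.01% of all genes). DESeq2 called Sult2a7 and Ugt1a10 there, beside 119 of all genes. At day 6 in 6-month-old mice 2 rose, Gstm3 and Sult2a7, beside 0.249% of all genes, or 0.191% in that direction. Both days share their control libraries. Averaged over the ages, Sult2a7 was the only member that edgeR called at day 2 and at day 6. In edgeR this stood beside 0.459% of all genes (0.351% higher) at day 2 and 0.281% (0.230% higher) at day 6. DESeq2 called 8 and 3 members, all higher, beside 185 and 84 of all genes. The test of any DEN difference called 0 in edgeR, beside 0.217%, with 9 at an unadjusted p under 0.05 (3.65% of all genes). In DESeq2 it called 5 members, beside 159 of all genes. Outside the set, 13 of 16 p53 target genes were higher at day 2 and 10 of 16 at day 6. These are not calls in young livers alone, where edgeR called 3 of all genes at day 2 and 0 at day 6.

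The mu-class GSTs, encoded by a cluster on chromosome 3, gave the largest shift in amount. Gstm1 was at 1695 and 1675 CPM in young controls and 1777 and 1474 CPM in adult controls. At day 2 it was at 2153, 3039 and 2474 CPM in young and 2179.6, 2668 and 2180.2 CPM in adult livers. At day 6 it was at 1328, 1942 and 1967 CPM in young and 1979.5, 2122 and 1989 CPM in adult livers. Each day 2 library was above each control, but the log2 fold change of 0.56 (SE 0.140) at day 2 did not pass in edgeR (adjusted p = 0.183), while DESeq2 gave an adjusted p of 0.00769. The summed Gstm level was 2134 ± 30.4 CPM (SD, n = 2) in young controls and reached 3146 ± 574 CPM (SD, n = 3) in young livers of day 2. Adult controls had 2063 ± 275 CPM (SD, n = 2) and adult livers of day 2 had 2876 ± 344 CPM (SD, n = 3). The second young day 2 library was the highest young one for Gstm1 and for this sum (3744 CPM), and neither is given without it.

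Gstm3 (ENSMUSG00000004038, chr3:107963696-107969283, minus strand) was at 119 and 113 CPM in young and 87.4 and 78.6 CPM in adult controls. In young livers it was at 112, 269 and 157 CPM at day 2 and 101, 139.6 and 139.8 CPM at day 6. In adult livers it was at 142, 154 and 155 CPM at day 2 and 184, 224 and 301 CPM at day 6. The adult day 6 libraries were above the adult day 2 libraries and the controls. Against adult controls the log2 fold change was 0.86 at day 2 (SE 0.294, edgeR adjusted p = 0.791) and 1.51 at day 6 (SE 0.301, edgeR adjusted p = 0.0864). In young livers it was 0.13 at day 6 (SE 0.287, edgeR adjusted p = 1). The difference between the ages at day 6, 1.38 (SE 0.407), did not pass (edgeR adjusted p = 1.00), and its 95% interval of 0.51 to 2.25 is not adjusted over genes. The call in adult livers at day 6 was lost in 15 of 23 alternatives, among them with the replicate block (edgeR adjusted p = 0.107), with only the groups compared (edgeR adjusted p = 0.115) and most of all without the second adult control (edgeR adjusted p = 0.981). Gstm2 was at 73.9 to 86.0 CPM in the 4 controls, 90.9 to 131 CPM at day 2 and 81.0 to 160.1 CPM at day 6. All its day 2 libraries were above the controls, with a log2 fold change of 0.51 (SE 0.143, edgeR adjusted p = 0.296).

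In the alpha class, Gsta4 was at 35.9 to 60.6 CPM in the 4 controls and 48.4 to 112 CPM in the 6 day 2 libraries. These ranges overlapped across the ages but not within either age, and the log2 fold change was 0.86 (SE 0.209, edgeR adjusted p = 0.159). Gsta2 was at 6.36 to 13.8 CPM in controls and 10.4 to 29.5 CPM at day 2, with a log2 fold change of 1.04 (SE 0.289, edgeR adjusted p = 0.277). For Gsta4 and Gsta2 the highest day 2 value was that of the second young day 2 library, and neither estimate is given without it. Gsta1 showed the largest estimate, 1.92 (SE 0.678, edgeR adjusted p = 0.610), and rested on 1 library. In young livers it was at 3.49 and 1.56 CPM in controls and at 4.00, 43.1 and 2.61 CPM at day 2. Without the second day 2 library the day 2 difference in young livers went from 2.73 to 0.40, and the average over ages to 0.75. In that library Nqo1, a quinone reductase induced through NRF2, was at 22.4 CPM, beside 6.54 to 14.7 CPM in all others, and the summed hepatocyte markers were at their lowest. The part of either in these values was not tested.

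Mgst3, a microsomal GST with peroxidase activity, was at 7.05 to 13.2 CPM in the 4 controls, 13.5 to 29.7 CPM at day 2 and 8.11 to 15.4 CPM at day 6. The lowest day 2 library lay just above the highest control. The log2 fold change at day 2 was 0.86 (SE 0.218, edgeR adjusted p = 0.196), and 0.65 without the second day 2 library of young mice. Mgst1, in contrast, differed by -0.05 (SE 0.119, edgeR adjusted p = 0.989), with a 95% interval of -0.31 to 0.20. There were 4 members with all day 2 libraries above all controls (Gstm1, Gstm2, Mgst3 and Sult2a7), beside 0.536% of all genes, and 0 had all of them below, beside 0.446%.

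**Figure D4:**
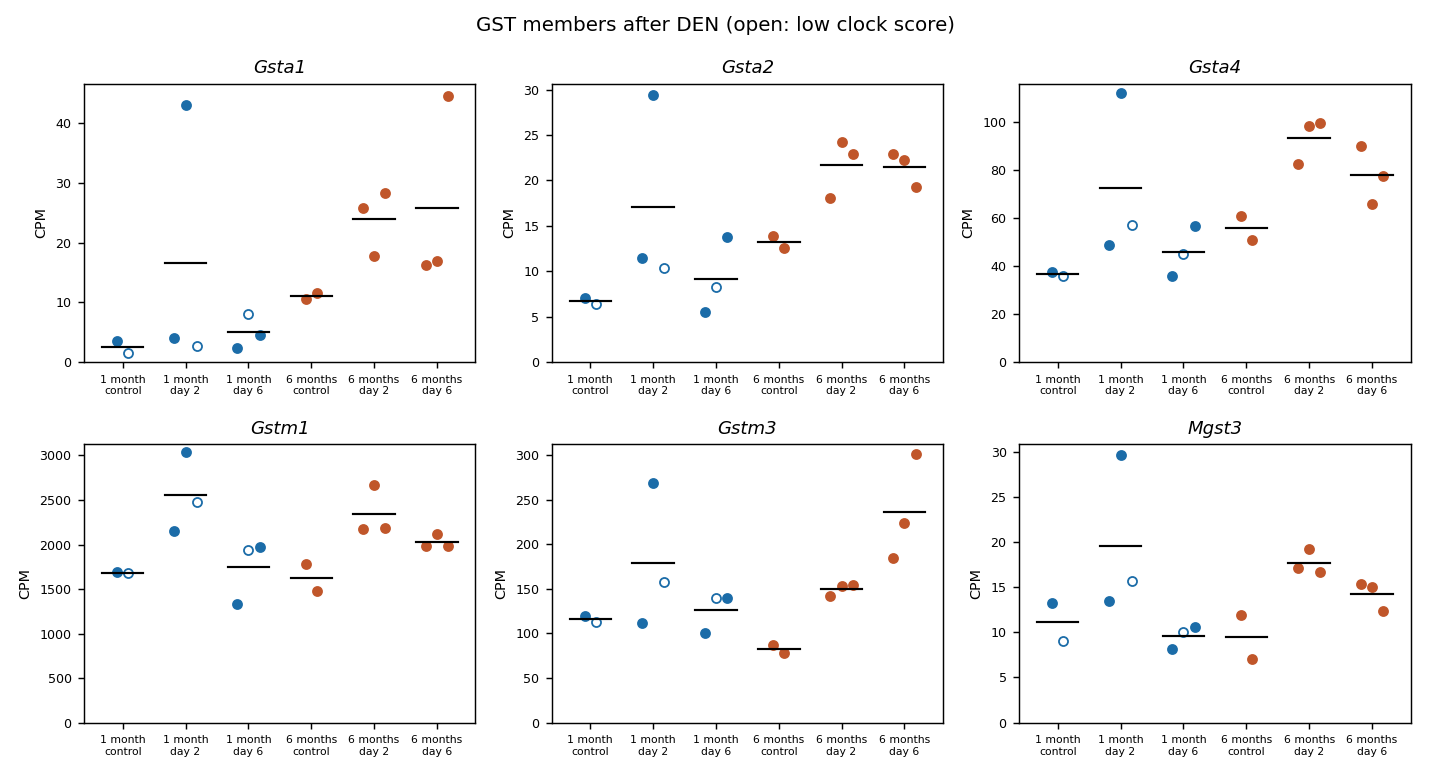
CPM of Gsta1, Gsta2, Gsta4, Gstm1, Gstm3 and Mgst3 in each library (vertical axes, linear from 0) by age and condition (horizontal axes). Points are libraries, blue at 1 month and orange at 6 months, bars are group means, and open circles are the 3 libraries of low clock score. The second day 2 library of young mice is the highest young library in every panel (43.1 CPM for Gsta1), and the adult day 6 libraries of Gstm3 reach 301 CPM.

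Sult2a7 (ENSMUSG00000094156, chr7:14465159-14492926, minus strand), which lies beside Sult2a8, was the only member to pass at both days. It was at 1.04 and 0.680 CPM in young and 1.17 and 0.540 CPM in adult controls. At day 2 it was at 3.36, 5.73 and 1.52 CPM in young and 9.11, 12.7 and 9.09 CPM in adult livers. At day 6 it was at 6.96, 0.827 and 7.94 CPM in young and 23.4, 11.7 and 9.41 CPM in adult livers. All DEN libraries but 1, the second day 6 library of young mice, were above the controls. Its log2 fold change was 2.85 at day 2 (SE 0.582, edgeR adjusted p = 0.0612) and 3.39 at day 6 (SE 0.587, edgeR adjusted p = 0.0354). In adult livers alone it was 3.65 at day 2 (SE 0.837, edgeR adjusted p = 0.159) and 4.17 at day 6 (SE 0.849, edgeR adjusted p = 0.0932). The latter call was lost in 15 of 23 alternatives, among them with the replicate block (edgeR adjusted p = 0.121), with only the groups compared (edgeR adjusted p = 0.107) and most of all without the second adult control (edgeR adjusted p = 1). Averaged over ages, the call was lost without any 1 of the 4 controls at either day, up to an edgeR adjusted p of 0.405 at day 2 and 0.271 at day 6. The age difference in the response was 1.59 at day 2 (SE 1.14, edgeR adjusted p = 0.943) and 1.56 at day 6 (SE 1.13, edgeR adjusted p = 1.00). None of its 50-base words occurs in another gene, whereas its neighbor Sult2a8, at 522 to 1150.4 CPM, differed by -0.24 at day 2 (SE 0.185, edgeR adjusted p = 0.979).

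Within groups, Sult2a7 also moved with the clock score, by 0.29 on the log2 scale per unit of score (SE 0.0762, edgeR adjusted p = 0.0194). The 3 libraries of low clock score held 3 of its 4 lowest values in young livers. With the score in the model its log2 fold change was 2.64 at day 2 (edgeR adjusted p = 0.00970) and 3.31 at day 6 (edgeR adjusted p = 0.00178). Without those 3 libraries it was 2.90 at day 2 (edgeR adjusted p = 0.0101) and 3.51 at day 6 (edgeR adjusted p = 0.00478). Without the second day 2 library of young mice it was 2.58 at day 2 (edgeR adjusted p = 0.179). Ugt1a10 had a rise by DESeq2 alone, from 1.96 and 1.85 CPM in adult controls to 3.32, 5.68 and 3.52 CPM at day 2 and 4.26, 5.25 and 2.83 CPM at day 6. All 6 adult DEN libraries were above both adult controls, and at day 2 the log2 fold change was 1.13 (SE 0.301, edgeR adjusted p = 0.324).

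**Figure D5:**
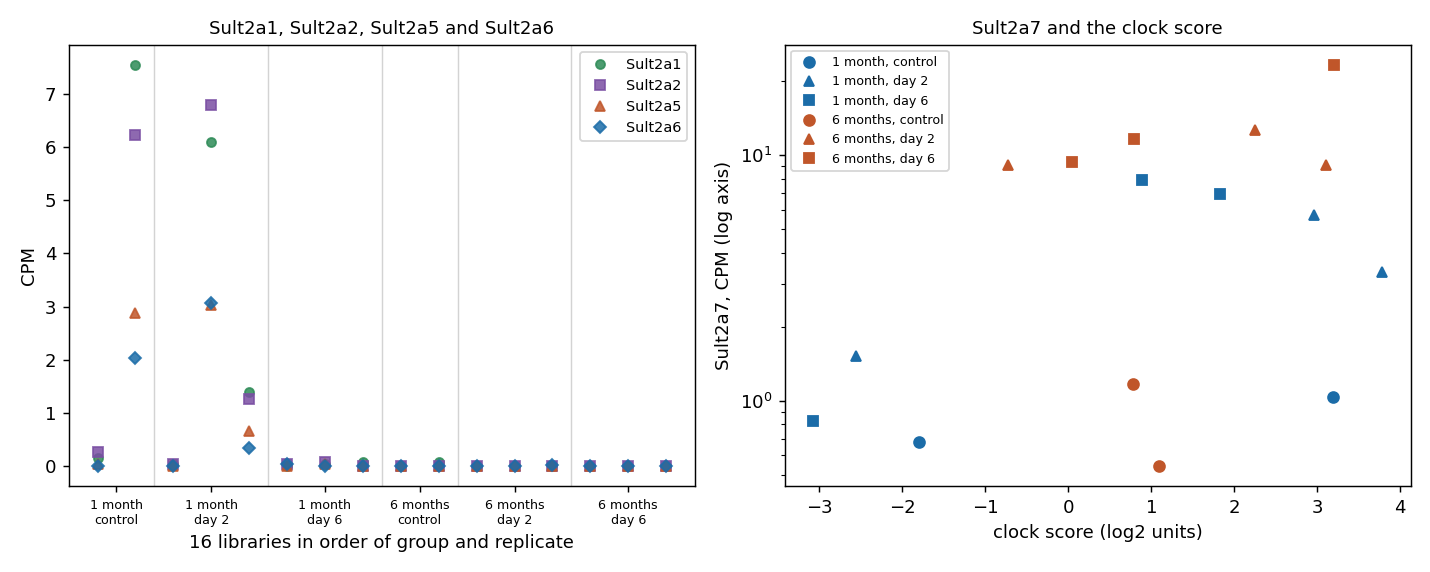
Left, CPM (linear axis) of Sult2a1, Sult2a2, Sult2a5 and Sult2a6 in the 16 libraries, ordered by group and replicate. Right, CPM of Sult2a7 (log axis) against the clock score of each library (log2 units), blue at 1 month and orange at 6 months, with circles for controls, triangles for day 2 and squares for day 6. The left panel shows 3 young libraries above 0.3 CPM and the adult libraries near 0, and the right panel shows the 4 controls at or below 1.17 CPM.

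The difference between the ages in the response to DEN passed for no member in edgeR. At day 2, 0 of 52 passed (beside 0.00638% of all genes), with 0 at an unadjusted p under 0.05 (4.46% of all genes). At day 6, 0 passed (beside 0.0128%), with 4 at an unadjusted p under 0.05 (1.91% of all genes). DESeq2 called none of them, beside 9 of all genes at day 2 and 11 at day 6. The standard error at day 2 was 0.276 for Gstm1 and 1.76 for Ugt1a2. For Gstm1 the 95% interval at day 2 ran from -0.67 to 0.52.

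Besides Sult2a7, 9 members followed the clock score within groups, so that 10 of 52 (19.2%) passed, beside 23.9% of all genes, which is near the background. Of these, 9 were higher with the score and 1 was lower. Gstt2, a theta-class GST, had the smallest adjusted p, with a slope of 0.23 (SE 0.0381, edgeR adjusted p = 0.00138). Its level was 25.4 CPM in the young control of low score and 50.8 CPM in the other, and 19.5 CPM in the day 6 library of low score beside 40.7 and 54.6 CPM. Sult1d1 had a slope of 0.13 (SE 0.0403, edgeR adjusted p = 0.0423), and Gstm7 the only negative slope, -0.08 (SE 0.0278, edgeR adjusted p = 0.0569). Ugt2a3, Ugt2b35, Ugt2b5, Ugt1a7c, Sult1b1 and Sult1c2 had slopes of 0.06 to 0.12.

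Genes around the conjugation enzymes were read from lists, and their counts with age stand beside 12.1% of all genes higher and 10.5% lower, so that 1 or 2 genes of a list are near the background. Of 11 genes of glutathione synthesis and turnover, none rose with age and 2 fell, Chac1 (-1.28) and Ggct (-0.39), which both break glutathione or its products down. Of 14 NRF2 target genes outside the set, 4 rose with age (Aox1 0.74, Hmox1 0.76, Txnrd1 0.27 and Srxn1 0.32) and none fell. Of 8 genes that supply or remove glucuronic acid, Ugdh, which makes UDP-glucuronic acid, rose by 0.43 (edgeR adjusted p = 0.0192), while Pgm1 and Ugp2 upstream of it both had log2 fold changes of -0.43 and the glucuronidase Gusb one of -0.35. Of 10 genes of sulfate and PAPS supply, Slc26a2 rose, Slc35b2 fell, and Slc26a1, a sulfate transporter of hepatocytes, fell by 0.68 on the log2 scale (edgeR adjusted p = 9.48e-05). Of 14 other conjugating enzymes, Nat8, which acetylates cysteine conjugates into mercapturic acids downstream of the GSTs, rose by 4.02 (edgeR adjusted p = 2.53e-09), from 0.986 to 3.31 CPM in young to 20.5 to 38.0 CPM in adult livers. Hpgds, a sigma-class GST that the symbol rule does not reach, rose by 1.33 and Inmt had a log2 fold change of -1.30. Of 14 receptors and hepatocyte factors, Nfe2l2, which encodes NRF2, rose by 0.39 (edgeR adjusted p = 0.0146), and Nr1i2, the pregnane X receptor, had a log2 fold change of -0.39 (edgeR adjusted p = 0.00163).

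At day 2 after DEN, averaged over ages, none of the glutathione, NRF2, glucuronic acid or sulfate genes passed in edgeR. Of 14 NRF2 targets 10 had positive values, a count of signs with no test and no share over all genes beside it. Ephx1, the microsomal epoxide hydrolase, rose by 0.79 (edgeR adjusted p = 0.0172), and Nfe2l2 rose by 0.58 (edgeR adjusted p = 0.0903). At day 6 Nat8 rose by 0.94 (edgeR adjusted p = 0.0966). Of 12 pericentral hepatocyte genes 3, Glul, Oat and Slc1a2, fell at both days. Beside them, 0.459% of all genes passed in either direction at day 2 and 0.281% at day 6. Glul fell by 1.14 and Oat by 1.58 on the log2 scale at day 2. The rest of the pericentral list is not described for these days, and the list was not tested as a set. Other features moved with age beside the conjugation genes. Of 15 female-biased liver genes 14 were lower at 6 months, with a median log2 fold change of -5.38, and of 15 male-biased genes 6 were higher, with a median of 0.68. Of 9 fetal and juvenile genes 5 were lower, and of 12 periportal genes 7 were lower while 5 of 12 pericentral genes were higher and 1, Cyp1a2, was lower. These age counts stand beside 12.1% of all genes higher and 10.5% lower. The summed hepatocyte markers were at 29186 to 33532 CPM in young controls and 26725 to 27268 CPM in adult controls. The part of sexual maturation, zonation or cell makeup in the age differences of the conjugation genes was not tested.

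Across all 16 libraries, the genes whose pattern was most like that of the members with the largest differences were found by Pearson correlation of log2 CPM, given as a description with no test. For Ugt2b37 they were 4930452B06Rik (r = 0.928), Cd276 (0.921) and Ugt1a9 (0.916). For Gsta1 they were the gene model Gm10639 (0.979), which shares sequence with Gsta1, then Txnrd1 (0.928) and Ugdh (0.912). For Ugt1a2 the nearest gene was Wdr37 (0.918). What the points share is their age group, and the correlations include the difference between the ages.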

How the data were processed

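Livers of 16 pools of 3 mice were sequenced in 6 groups. The authors deposited raw counts per gene in 1 table, made with TopHat2 2.0.13 on GRCm38 with Ensembl genes, as the study's methods and the submitters' processing notes state. The notes also name Cufflinks 2.2.1 and Cuffnorm, with no role given. Which program made the counts, and whether it used strand, is not stated there. The table also holds the authors' normalized counts, their means and their own comparisons (DESeq2 1.10.1), which were not used. Each column was matched to its sample by its name.

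Counts were tested with edgeR 4.0.16 (R 4.3.3) by quasi-likelihood with TMM scaling and filterByExpr, in 1 model of 6 groups, with Benjamini-Hochberg adjustment over 15684 genes and a threshold of 0.1. CPM were computed on TMM-scaled libraries, with a prior count of 2 for log2 values. The biological coefficient of variation was 0.218. DESeq2 1.42.0, RLE scaling, no filter, only the groups compared, a replicate block, the clock score as a covariate, leaving out its 3 lowest libraries and leaving out each library in turn were the alternatives. The clock score is the mean log2 CPM of 9 output genes minus that of 5 driver genes. The procedure was tested on simulated data, in which 94.0% of genes changed 2-fold were recovered in the age comparison averaged over conditions, with 15379 genes. Depth was 19039330 to 34459774 counts per library. Pools are the replicates, so p-values measure the spread between pools.

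The members and the gene lists were chosen with earlier results of these data known. Named in full were the members that passed, up to 12 a comparison, up to 2 of the largest that did not, a fixed list, and the strongest of each family. Members with 3 counts or fewer in every library of a group were given no fold change. Ugt1a10, Sult2a2, Sult2a4, Sult2a5 and Sult2a6 were named after their values were seen. Exon lengths and shared 50-base words came from GENCODE transcripts, in which all 64 members were found and 51 had the coordinates of the table. Promoter windows came from RefSeq (GRCm38.p6). Figures were drawn with matplotlib 3.10.9.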

Additional observations from a re-analysis of the deposited data

How the results depend on the processing

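The number of members called for age, averaged over conditions (15), stayed between 12 and 21 in every alternative, and between 12 and 17 with 1 library left out. Ugt1a9, Gsto1, Ugt2b37, Gstp2, Sult1a1, Ugt3a1, Gstp1, Sult1c2, Gsta2 and Ugt1a1 kept their call and direction in all 22 alternatives. Gsta4 lost its call without the 3 libraries of low clock score (adjusted p = 0.117) and Gsta1 without the second control at 1 month (adjusted p = 0.128). Ugt1a10, Sult1d1 and Ugt1a2, whose calls were the closest to the threshold, were not followed by name through the alternatives. Without the 3 libraries of low clock score 12 of the 15 calls remained, so calls among these were lost there too. Of 70 named values, 4 turned direction under 1 alternative each. These were Gsta1 at day 6 in young livers, 0.99 as reported and -0.015 without the 3 libraries of low clock score, and Ugt2b37 at day 2 in adult livers, -1.17 and 0.16 without the second adult control. The others were Ugt1a2 at day 6 averaged over ages, 0.92 and -0.031 without the first young day 6 library, and the age difference of Gsta1 at day 2, -1.62 and 0.72 without the second young day 2 library. With any 1 library left out, these last 3 ranged from -1.80 to 0.16, from -0.031 to 3.89 and from -2.30 to 0.72. The cause was not tested for any of these.

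Counts for age in controls (4) moved to 7 in DESeq2, 11 with no filter on low counts and 0 with only the groups compared. Calls over all genes moved as well, from 418 to 746, 794 and 111. For age averaged over conditions, calls over all genes were 3551 as reported and 3042 to 4695 in the alternatives, single libraries left out aside. At day 2 (9) no filter gave 16, and at day 6 (7) it gave 13, while leaving out the 3 libraries gave 4. Over all genes these were 1372 (from 926), 1026 (from 701) and 305. For DEN in young livers, no filter gave 4 at day 2 and 5 at day 6, against 0 at both. Over all genes it gave 131 and 49, against 3 and 0. In adult livers at day 2 (0), DESeq2, no filter and only the groups compared gave 2 each, and the clock score covariate and leaving out the 3 libraries gave 1 each. Over all genes, in the same order, they gave 119, 135, 63, 78 and 68, against 50. At day 6 (2), only the groups compared gave 0 and leaving out the 3 libraries gave 1, beside 19 and 50 of all genes, against 39. Averaged over ages, DESeq2 gave 8 and no filter 9 at day 2 (1), and both gave 3 at day 6 (1). Over all genes they gave 185 and 215 at day 2, against 72, and 84 and 106 at day 6, against 44. For any DEN difference (0), DESeq2 gave 5, no filter 11, and the clock score covariate and leaving out the 3 libraries 1 each. Over all genes, in the same order, they gave 159, 289, 48 and 47, against 34. No filter gave 1 for the age difference at day 6 (0), beside 22 of all genes, against 2. Without a filter more low genes are tested. Counts with single libraries left out are given for the members only, with no share over all genes beside them.

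With 1 library left out, the calls ranged from 0 to 4 in controls (0 without the first adult control), 6 to 14 at day 2 (14 without the first young day 2 library) and 3 to 9 at day 6 (3 without the second young or the third adult day 6 library). For DEN they stayed at 0 in young livers at both days, and were 0 to 1 at day 2 and 0 to 2 at day 6 in adult livers, 0 to 4 at day 2 and 0 to 2 at day 6 averaged over ages, and 0 to 1 for any difference. The age difference stayed at 0, and the clock score gave 3 to 16. Sult2a7 at day 2 lost its call without any 1 of 8 libraries (each control, each adult day 2 library and the second young day 2 library) and at day 6 without any control.

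With the replicate number as a block, 8 members were called for age in controls, 0 for day 6 in adult livers, 1 for any DEN difference and 5 for the clock score. Over all genes the block gave 516, 37, 36 and 1919, against 418, 39, 34 and 3747. The labels tie the numbers to no shared animal, batch or day. The deviations of same-numbered libraries correlated with a median of 0.05 over 36 pairs (-0.30 to 0.59), so not every pair was above 0.1 and the numbers were not taken to pair the libraries, but 11 of 16 libraries correlated best with one of their own number, which is a hint of pairing from the data.

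Depth limits the 12 untested members and low genes such as Ugt1a2 and Sult2a4, whose values rest on few counts.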

Other observations

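Several conjugation genes of known function in liver differed little with age, averaged over conditions. Gstz1, the zeta-class GST that isomerizes maleylacetoacetate in tyrosine breakdown, had a log2 fold change of 0.05 with age (SE 0.0782, edgeR adjusted p = 0.697) and 0.01 at day 2 after DEN (SE 0.0991, edgeR adjusted p = 1.00). Gstt1, a theta-class GST, had 0.01 with age (SE 0.127, edgeR adjusted p = 0.983) and 0.31 at day 2 (SE 0.162, edgeR adjusted p = 0.961), and its neighbor Gstt3 had 0.09 with age (SE 0.218, edgeR adjusted p = 0.821). The kappa-class enzyme Gstk1 had -0.19 with age (SE 0.0965, edgeR adjusted p = 0.205). Ugt1a6a, which conjugates planar phenols, had -0.08 with age (SE 0.0771, edgeR adjusted p = 0.549), with 96.0% of its 50-base words also in another gene, so its level is the least certain of these. Mgst1 had 0.17 with age (SE 0.0940, edgeR adjusted p = 0.259).

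Members known mainly from other tissues or from female liver were low. Sult3a1 was at 0 to 0.510 CPM in young and 0 to 0.151 CPM in adult livers, with no test. Sult1e1 was at 0.0376 to 0.480 CPM in young and 0.0284 to 0.555 CPM in adult livers, and these ranges overlapped.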
